A study of Canis lupus familiaris with 5 samples.

Results

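The interferon response and the class I antigen-processing machinery were followed through 35 listed genes in single nuclei of canine cephalic vein prepared as a bypass graft. A listed gene was taken by its name in the deposited feature tables, after any trailing number had been stripped from that name. The names matched 33 of the 35 genes, among 35530 gene names in all, and SAMD9 and XAF1 are not analysed here. By role, 5 of the 33 encode transcription factors (IRF1, IRF7, IRF9, STAT2 and NLRC5). A further 8 sense foreign RNA or act on that signal (IFIH1, DHX58, DDX60, EIF2AK2, OAS1, OAS2, OAS3 and OASL). Another 8 are antiviral effectors (MX1, MX2, RSAD2, CMPK2, ISG20, IFI44, IFI44L and SAMD9L). The remaining genes are 7 from the ISG15, ubiquitin and ADP-ribose systems (ISG15, USP18, HERC6, TRIM25, PARP9, PARP14 and DTX3L), the chemokine CXCL10, and 4 of class I antigen processing (B2M, TAP1, PSMB8 and PSMB9).

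Nuclear RNA was read from snap-frozen vein of 2 mongrel dogs, both labelled male, with no age given in the labels used here. Undistended cephalic vein of dogs 1 and 2 served as the control (n = 2). Distended vein came from the same dogs after harvest, in which saline with papaverine hydrochloride and bivalirudin was injected against an occluded outflow over about 30 min (n = 2). Grafted vein came from dog 1 alone, 24 h after that distended vein had been sewn into the carotid artery under systemic bivalirudin (n = 1). All dogs were anaesthetised with sodium pentothal and isofluorane, and every library holds a segment of a single dog's vein.

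Interferon genes are switched on in steps. Sensors of viral RNA or displaced DNA lead cells to secrete type I interferon, which acts through the kinases JAK1 and TYK2 on STAT2. STAT2 and IRF9 act in the nucleus to turn on the interferon-stimulated genes, among them the MX proteins, the oligoadenylate synthetases and the ISG15 system. Interferon gamma acts through IRF1 and NLRC5 on the genes that cut peptides (PSMB8, PSMB9), carry them into the endoplasmic reticulum (TAP1) and hold them at the cell surface (B2M with a class I heavy chain). Endothelial cells are known to display class I molecules at rest and to answer both kinds of interferon.

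The libraries differed in depth and in makeup. They held from 410604 to 11302558 unique molecular identifiers (UMIs, one per captured transcript) and kept 765 nuclei in the control of dog 1, 1036 in the control of dog 2, 2108 in distended dog 1, 241 in distended dog 2 and 2705 in the graft. A group of 4 features without a gene symbol took 71.0% and 65.2% of the kept UMIs in the controls, 39.8% and 28.0% in the distended veins and 3.00% in the graft. Distended dog 2 is the smallest library, and the control of dog 2 stood apart by its erythroid markers, at 16417 UPM (UMIs per 1000000 UMIs outside those features) against 0 to 37 UPM in the other libraries. Any pair of libraries shared at most 2 barcodes. Clusters made without the listed genes were named from marker lists. Endothelial-like nuclei numbered 652, 502, 599, 178 and 1260 and fibroblast-like nuclei 49, 390, 1213, 51 and 793, in controls 1 and 2, distended veins 1 and 2 and the graft. All 18 endothelial markers were detected in the endothelial-like nuclei of every library, and 16 to 18 of 18 fibroblast markers in the fibroblast-like nuclei. Such detection over many nuclei does not test the name. Of the 1260 endothelial-like graft nuclei, 992 lay in cluster 14 and 262 in cluster 8, named on 7 and 3 endothelial markers. Neither had an endothelial marker among its leading genes. Cluster 14 held 0 control nuclei, and cluster 8 held 11 and 1. Graft and cluster therefore cannot be told apart in the endothelial-like nuclei.

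Summed over the 33 genes, the listed transcripts made up 1251 and 1237 UPM in the controls of dogs 1 and 2, from 625 and 420 UMIs. In each library 26 to 33 of the 33 genes were detected. The sum was 1477 and 698 UPM in the distended veins (2212 and 195 UMIs) and 581 UPM in the graft (6335 UMIs). The graft had the lowest sum although it was the deepest library, the controls lay close to each other, and the distended veins lay on either side of them. In whole vein, fewer cells of a type and less RNA per cell cannot be told apart.

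Levels in whole vein are given below as CPM, UMIs per 1000000 after TMM scaling of the libraries. A count of 0 UMIs allows a level of up to 3.29 and 5.03 CPM in the controls, 1.12 and 5.39 CPM in the distended veins and 0.138 CPM in the graft (3 UMIs, counting error only). Of the 33 genes, 31 had at least 30 UMIs over the 5 libraries and are given one by one. The other two were OASL, with 1, 1, 7, 0 and 17 UMIs in controls 1 and 2, distended veins 1 and 2 and the graft, and CXCL10, whose 8 UMIs all lay in the graft.

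Of the transcription factors, STAT2 and NLRC5 held similar levels in the 5 libraries and IRF1 did not. STAT2, which carries the signal of type I interferon, stood at 18.6 and 18.5 CPM in the controls of dogs 1 and 2 (17 and 11 UMIs), 26.1 and 21.6 CPM in their distended veins (70 and 12 UMIs) and 17.7 CPM in the graft (384 UMIs). IRF9, its DNA-binding partner, stood at 16.4 and 13.4 CPM in the controls of dogs 1 and 2 (15 and 8 UMIs), 12.7 and 1.80 CPM in their distended veins (34 and 1 UMIs) and 8.71 CPM in the graft (189 UMIs). NLRC5, the transactivator of class I genes, stood at 47.1 and 68.8 CPM in the controls of dogs 1 and 2 (43 and 41 UMIs), 36.9 and 39.6 CPM in their distended veins (99 and 22 UMIs) and 41.7 CPM in the graft (905 UMIs). The 5 libraries lay within a narrow band for STAT2 and NLRC5, whereas distended dog 2 had a single UMI of IRF9. IRF1, which is induced by interferon gamma and by injury signals, stood at 3.29 and 153 CPM in the controls of dogs 1 and 2 (3 and 91 UMIs), 10.8 and 16.2 CPM in their distended veins (29 and 9 UMIs) and 10.4 CPM in the graft (226 UMIs). The control of dog 2 was thus far above the other 4 libraries. IRF7, which amplifies type I interferon production, was scarce, at 4.39 and 3.36 CPM in the controls of dogs 1 and 2 (4 and 2 UMIs), 6.71 and 0 CPM in their distended veins (18 and 0 UMIs) and 0.737 CPM in the graft (16 UMIs).

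The RNA sensors and the enzymes downstream of them were high in distended dog 1 and low in distended dog 2 and the graft. IFIH1, also called MDA5, a sensor of long double-stranded RNA, stood at 23.0, 32.4 and 4.84 CPM in control, distended and grafted vein of dog 1 (21, 87 and 105 UMIs), and 23.5 and 7.19 CPM in control and distended vein of dog 2 (14 and 4 UMIs). DDX60, a helicase that assists such sensing, stood at 34.0, 45.9 and 9.63 CPM in control, distended and grafted vein of dog 1 (31, 123 and 209 UMIs), and 35.2 and 1.80 CPM in control and distended vein of dog 2 (21 and 1 UMIs). DHX58, or LGP2, which modulates it, stood at 4.39, 17.1 and 2.07 CPM in control, distended and grafted vein of dog 1 (4, 46 and 45 UMIs), and 6.71 and 1.80 CPM in control and distended vein of dog 2 (4 and 1 UMIs). For all of these, distended dog 1 was the highest library, and distended dog 2 and the graft were the lowest. EIF2AK2, the kinase PKR that halts translation when it binds double-stranded RNA, stood at 10.96, 26.5 and 9.35 CPM in control, distended and grafted vein of dog 1 (10, 71 and 203 UMIs), and 10.1 and 5.39 CPM in control and distended vein of dog 2 (6 and 3 UMIs). Its graft level was close to both controls, unlike that of the sensors.

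The oligoadenylate synthetases, which activate RNase L on binding double-stranded RNA, shared the peak in distended dog 1, but OAS3 did not share the low graft level. OAS2 stood at 16.4, 57.4 and 6.17 CPM in control, distended and grafted vein of dog 1 (15, 154 and 134 UMIs), and 20.1 and 12.6 CPM in control and distended vein of dog 2 (12 and 7 UMIs). OAS3 stood at 4.39, 19.4 and 4.70 CPM in control, distended and grafted vein of dog 1 (4, 52 and 102 UMIs), and 16.8 and 3.60 CPM in control and distended vein of dog 2 (10 and 2 UMIs). OAS1, the scarcest of these, stood at 2.19, 7.08 and 0.783 CPM in control, distended and grafted vein of dog 1 (2, 19 and 17 UMIs), and 6.71 and 1.80 CPM in control and distended vein of dog 2 (4 and 1 UMIs). Distended dog 1 was the highest library for each, and the graft was below both controls for OAS1 and OAS2 but between them for OAS3.

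Among the antiviral effectors the differences between libraries were wider. MX1, a dynamin-like GTPase that traps viral components, stood at 18.6, 40.6 and 1.38 CPM in control, distended and grafted vein of dog 1 (17, 109 and 30 UMIs), and 11.7 and 1.80 CPM in control and distended vein of dog 2 (7 and 1 UMIs). MX2, its nuclear-envelope relative, stood at 13.2, 28.3 and 3.69 CPM in control, distended and grafted vein of dog 1 (12, 76 and 80 UMIs), and 11.7 and 1.80 CPM in control and distended vein of dog 2 (7 and 1 UMIs). Both had 1 UMI in distended dog 2, and the graft lay below both controls. IFI44 stood at 17.5, 28.7 and 2.76 CPM in control, distended and grafted vein of dog 1 (16, 77 and 60 UMIs), and 5.03 and 0 CPM in control and distended vein of dog 2 (3 and 0 UMIs). IFI44L, its close paralog, stood at 20.8, 31.3 and 2.03 CPM in control, distended and grafted vein of dog 1 (19, 84 and 44 UMIs), and 5.03 and 0 CPM in control and distended vein of dog 2 (3 and 0 UMIs). Neither was detected in distended dog 2, and again the graft lay below both controls. SAMD9L, a restriction factor of poxviruses, was the best detected effector and stood at 64.7, 94.3 and 28.8 CPM in control, distended and grafted vein of dog 1 (59, 253 and 625 UMIs), and 40.3 and 59.3 CPM in control and distended vein of dog 2 (24 and 33 UMIs). It was the one effector of these whose level in distended dog 2 lay within the range of the controls.

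The remaining effectors rested on few UMIs. RSAD2, or viperin, had 0, 7.83 and 0.507 CPM in control, distended and grafted vein of dog 1 (0, 21 and 11 UMIs), and 5.03 and 0 CPM in control and distended vein of dog 2 (3 and 0 UMIs). CMPK2, a nucleotide kinase next to it in mammalian genomes, had 0, 8.95 and 0.230 CPM in control, distended and grafted vein of dog 1 (0, 24 and 5 UMIs), and 3.36 and 0 CPM in control and distended vein of dog 2 (2 and 0 UMIs). ISG20, an exonuclease, had 0, 0.373 and 2.44 CPM in control, distended and grafted vein of dog 1 (0, 1 and 53 UMIs), and 11.7 and 1.80 CPM in control and distended vein of dog 2 (7 and 1 UMIs). RSAD2 and CMPK2 peaked in distended dog 1, and ISG20 had a single UMI there, with its highest level in the control of dog 2.

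Among the genes of the ISG15, ubiquitin and ADP-ribose systems, most shared the order of the sensors. ISG15, the ubiquitin-like modifier itself, was scarce in these nuclei, at 2.19, 3.73 and 1.29 CPM in control, distended and grafted vein of dog 1 (2, 10 and 28 UMIs), and 1.68 and 1.80 CPM in control and distended vein of dog 2 (1 and 1 UMIs). USP18, which removes ISG15 and damps the receptor, stood at 15.4, 31.3 and 3.41 CPM in control, distended and grafted vein of dog 1 (14, 84 and 74 UMIs), and 21.8 and 5.39 CPM in control and distended vein of dog 2 (13 and 3 UMIs). HERC6, a ubiquitin ligase of the HERC family, stood at 17.5, 48.8 and 12.8 CPM in control, distended and grafted vein of dog 1 (16, 131 and 278 UMIs), and 26.9 and 7.19 CPM in control and distended vein of dog 2 (16 and 4 UMIs). TRIM25 did not share the peak in distended dog 1. This ubiquitin ligase, which assists RIG-I signalling, stood at 46.1, 39.5 and 15.2 CPM in control, distended and grafted vein of dog 1 (42, 106 and 329 UMIs), and 26.9 and 18.0 CPM in control and distended vein of dog 2 (16 and 10 UMIs). The complex of PARP9 and DTX3L, which ADP-ribosylates and ubiquitinates histones and viral proteins, had similar levels. PARP9 stood at 12.1, 15.7 and 2.63 CPM in control, distended and grafted vein of dog 1 (11, 42 and 57 UMIs), and 13.4 and 10.8 CPM in control and distended vein of dog 2 (8 and 6 UMIs). DTX3L stood at 12.1, 20.9 and 3.09 CPM in control, distended and grafted vein of dog 1 (11, 56 and 67 UMIs), and 18.5 and 12.6 CPM in control and distended vein of dog 2 (11 and 7 UMIs). PARP14, a mono-ADP-ribosyltransferase, stood at 26.3, 47.3 and 9.26 CPM in control, distended and grafted vein of dog 1 (24, 127 and 201 UMIs), and 16.8 and 10.8 CPM in control and distended vein of dog 2 (10 and 6 UMIs). The graft was the lowest library for USP18, TRIM25, PARP9, DTX3L and PARP14, and distended dog 2 for HERC6.

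**Figure D1:**
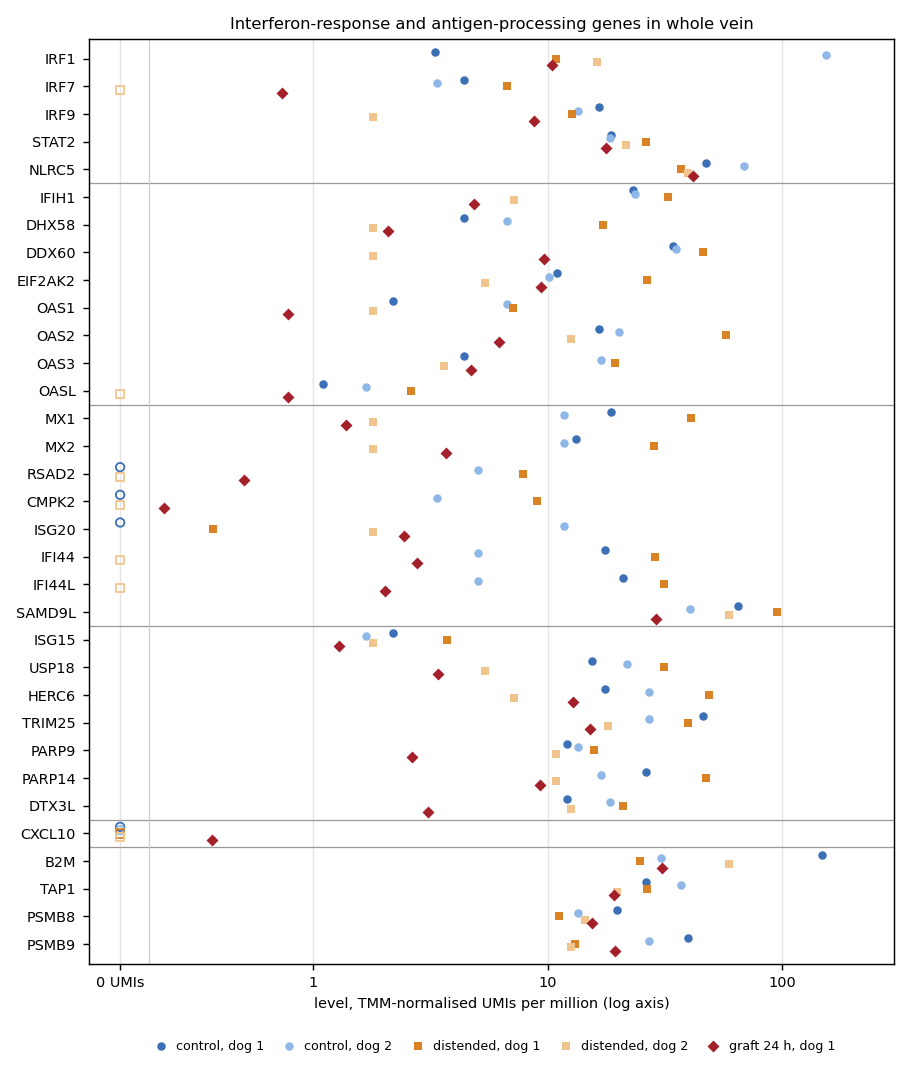
Levels of the 33 genes in whole vein, as TMM-normalised CPM on a log axis, with 1 point per library and open symbols at the left edge for 0 UMIs; lines separate the roles. For most sensors, effectors and ISG15-system genes the graft (diamonds) and distended dog 2 (pale squares) lie to the left of both controls and distended dog 1 to the right, as for MX1 at 1.38 and 1.80 against 11.7 to 40.6 CPM, whereas the class I genes at the bottom show no such order.

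Class I antigen processing did not follow the sensors and effectors. B2M, the light chain of class I molecules, stood at 147 and 30.2 CPM in the controls of dogs 1 and 2 (134 and 18 UMIs), 24.6 and 59.3 CPM in their distended veins (66 and 33 UMIs) and 30.7 CPM in the graft (667 UMIs). TAP1, a subunit of the peptide transporter, stood at 26.3 and 36.9 CPM in the controls of dogs 1 and 2 (24 and 22 UMIs), 26.5 and 19.8 CPM in their distended veins (71 and 11 UMIs) and 19.1 CPM in the graft (414 UMIs). The control of dog 1 was far above the other libraries for B2M, whereas TAP1 varied little. PSMB8, an immunoproteasome subunit, stood at 19.7 and 13.4 CPM in the controls of dogs 1 and 2 (18 and 8 UMIs), 11.2 and 14.4 CPM in their distended veins (30 and 8 UMIs) and 15.3 CPM in the graft (333 UMIs). PSMB9, another such subunit, stood at 39.5 and 26.9 CPM in the controls of dogs 1 and 2 (36 and 16 UMIs), 13.05 and 12.6 CPM in their distended veins (35 and 7 UMIs) and 19.3 CPM in the graft (419 UMIs). Distended dog 1 was the lowest or among the lowest libraries for B2M, PSMB8 and PSMB9, where it had been the highest for the sensors.

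The first comparison asked whether harvest and distension changed these genes. None passed the edgeR quasi-likelihood test with Benjamini-Hochberg adjustment at 0.05: 0 of the 30 members tested were called, against a background of 0% (0 of 13170 genes). An unadjusted p under 0.05 was reached by 0 members and 186 genes. DESeq2 called 1 gene, no member. The members' median log2 fold change was 0.20 and that of all genes 0.08, with 11 of the 30 members below 0. Among members with at least 20 UMIs in the libraries compared, the highest log2 fold changes were those of CMPK2 (1.84, SE 2.05, adjusted p = 1), RSAD2 (1.06, SE 1.96, adjusted p = 1) and OAS2 (0.99, SE 0.86, adjusted p = 1). The lowest were those of IRF1 (-2.55, SE 1.30, adjusted p = 1), PSMB9 (-1.37, SE 0.74, adjusted p = 1) and B2M (-1.12, SE 0.86, adjusted p = 1). ISG20 was lower still (log2 fold change -2.84, SE 2.23, adjusted p = 1) on 9 UMIs, 7 of them in the control of dog 2. CMPK2 and RSAD2 had 2 and 3 UMIs in the controls together, and their distended UMIs all lay in distended dog 1. Their pooled count ratios spanned 1.39 to 48.8 and 0.973 to 17.1 (exact 95% counting intervals, counting error only). IRF1 rested on the control of dog 2: without that library its log2 fold change was 1.99. B2M rested on the control of dog 1, without which it was 0.53, and OAS2 on distended dog 1, without which it was -0.55. The members' median rested on which distended vein was kept: it was -1.07 without distended dog 1, with 21 of the 23 members then tested below 0, and 0.76 without distended dog 2. Neutrophil markers moved between these libraries too. In all nuclei 5 and 11 of 12 were detected in the controls, 9 and 7 in the distended veins and 12 in the graft, summing to 30.02 and 1176 UPM, 36.1 and 222 UPM, and 383 UPM. CXCR2 and CXCR1 were at 0 in the control of dog 1 and in both distended veins. The control of dog 2 was highest for these markers, as it was for the erythroid markers and IRF1, and their part in the IRF1 level was not tested.

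The dogs went in opposite directions. In dog 1 the distended vein lay above the control for 24 of 30 members, against 52.9% of all genes tested, and in dog 2 it lay above for 4 of 30, against 47.3%. For 22 of 30 members the distended vein was above the control in dog 1 and below it in dog 2, where 31.2% of all genes did so. These 22 included every sensor and synthetase tested, MX1, MX2, IFI44, IFI44L, USP18, HERC6 and the PARP9-DTX3L pair. The dog 2 side rests on few UMIs: by exact 95% counting intervals, the libraries separated in the direction of this pattern for 9 of 30 members in dog 1, where 14% of all genes did (DHX58, EIF2AK2, OAS2, OAS3, MX1, RSAD2, CMPK2, HERC6 and PARP14), and for DDX60 and IRF1 alone in dog 2, where 12% did. The opposite pattern, below in dog 1 and above in dog 2, held for B2M and PSMB8 alone, against 27.1% of genes. STAT2 was higher in both distended veins than in both controls (12.9% of genes were), and IRF9, NLRC5 and PSMB9 were lower in both (10.3% of genes were). Depth, ribosomal transcripts and nucleus classes also differed between the distended veins: 2108 nuclei against 241, a ribosomal protein share of 0.504% against 8.90%, and 1213 fibroblast-like nuclei against 51. Their part in the split between dogs was not tested.

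The second comparison set the 24 h graft against the undistended vein. All 30 members tested had log2 fold changes below 0, with a median of -1.55, where the median of all genes was 0.12. No member passed the test: edgeR called 0 of 30 members, against a background of 0% (0 of 13170 genes), and 0 members and 1162 genes had an unadjusted p under 0.05. DESeq2 called 116 genes and 0 members. In 23 of 30 members the graft lay below both controls, where 32.3% of all genes did so. The lowest fold changes were those of MX1 (-3.45, SE 1.56, adjusted p = 0.564), IRF1 (-2.89, SE 1.68, adjusted p = 0.59) and IFI44L (-2.70, SE 1.77, adjusted p = 0.619). The fold changes nearest to 0 were those of STAT2 (-0.07, SE 0.86, adjusted p = 0.982), PSMB8 (-0.12, SE 0.92, adjusted p = 0.971) and EIF2AK2 (-0.17, SE 1.11, adjusted p = 0.964). By role, the median was -2.08 for 8 antiviral effectors, -1.77 for 6 genes of the ISG15, ubiquitin and ADP-ribose systems and -1.56 for 7 sensing genes, against -0.78 for 5 transcription factors and -0.75 for 4 class I genes. With a single grafted library, its spread was assumed to equal that of the others. IRF1 again rested on the control of dog 2, without which its log2 fold change was 1.68. With distended dog 1 left out instead, it was -2.81.

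Against the distended veins the graft gave a median of -1.56 over the members, with 25 of 30 below 0, and 0.01 over all genes. edgeR called 0 of 30 members, against a background of 0%. DTX3L and MX1 (2 members) and 725 genes had an unadjusted p under 0.05, while DESeq2 called 32 genes and 0 members. The graft lay below both distended veins for 13 members, where 27.1% of all genes did, and above both for ISG20, NLRC5, PSMB8 and PSMB9, where 34.4% did. The lowest fold changes were those of CMPK2 (-4.38, SE 2.40, adjusted p = 0.953), MX1 (-4.01, SE 1.59, adjusted p = 0.906) and RSAD2 (-3.15, SE 2.26, adjusted p = 0.994). The highest were those of ISG20 (1.68, SE 2.30, adjusted p = 0.999), PSMB9 (0.59, SE 0.84, adjusted p = 0.999) and PSMB8 (0.28, SE 0.91, adjusted p = 0.999). ISG20 had 2 UMIs in the distended veins together, which leaves its pooled ratio between 1.04 and 33.5. Without distended dog 1 the median over the 23 members then tested was -0.19, with 13 below 0. Without distended dog 2 it was -2.28, with MX1 at a log2 fold change of -4.84. Within dog 1 the graft lay below the distended vein for 25 of 30 members (46.7% of all genes) and below the control for 25 of 30 (43.4%). By exact 95% counting intervals it lay below the distended vein for 22 members, where 33.1% of all genes did, and below the control for 15, where 21.1% did. It lay above either for none, where 36% and 25.6% of genes did. These intervals cover counting error only and not the spread between animals.

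Within endothelial-like nuclei alone distended dog 1 again held the most listed transcripts, and distended dog 2 and the graft the fewest. Summed over the 33 genes, these nuclei held 1288 and 1393 UPM in the controls of dogs 1 and 2, 1715 and 752 in the distended veins and 625 in the graft. Of the members, 25 had enough UMIs to be tested in these nuclei. The 8 left out were IRF7, OAS1, OASL, ISG15, RSAD2, CMPK2, ISG20 and CXCL10, with 4 to 38 UMIs each over the 5 libraries. A count of 0 UMIs allows up to 3.47 and 9.35 CPM in the controls, 2.94 and 5.85 CPM in the distended veins and 0.196 CPM in the graft.

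Among the antiviral effectors the graft stood low. MX1 stood at 19.7, 42.1 and 1.05 CPM in control, distended and grafted vein of dog 1 (17, 43 and 16 UMIs), and 21.8 and 1.95 CPM in control and distended vein of dog 2 (7 and 1 UMIs). IFI44L stood at 20.8, 37.2 and 1.77 CPM in control, distended and grafted vein of dog 1 (18, 38 and 27 UMIs), and 6.23 and 0 CPM in control and distended vein of dog 2 (2 and 0 UMIs). MX2 stood at 11.6, 42.1 and 2.09 CPM in control, distended and grafted vein of dog 1 (10, 43 and 32 UMIs), and 12.5 and 1.95 CPM in control and distended vein of dog 2 (4 and 1 UMIs). For MX1 the counting interval of the graft (0.598 to 1.70 CPM) lay below those of both controls (11.5 to 31.5 and 8.77 to 44.9 CPM). For IFI44L the control of dog 2 rests on 2 UMIs, and its interval (0.754 to 22.5 CPM) holds the level of the graft. Distended dog 2 had 1 UMI of MX1 and none of IFI44L. IFI44 stood at 18.5, 26.5 and 2.81 CPM in control, distended and grafted vein of dog 1 (16, 27 and 43 UMIs), and 6.23 and 0 CPM in control and distended vein of dog 2 (2 and 0 UMIs). SAMD9L stood at 66.0, 77.4 and 36.4 CPM in control, distended and grafted vein of dog 1 (57, 79 and 557 UMIs), and 49.8 and 62.4 CPM in control and distended vein of dog 2 (16 and 32 UMIs). SAMD9L again differed least, with distended dog 2 inside the range of the controls.

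Of the sensors, DDX60 stood at 32.4, 68.6 and 4.18 CPM in control, distended and grafted vein of dog 1 (28, 70 and 64 UMIs), and 21.8 and 0 CPM in control and distended vein of dog 2 (7 and 0 UMIs). IFIH1 stood at 22, 43.1 and 5.62 CPM in control, distended and grafted vein of dog 1 (19, 44 and 86 UMIs), and 34.3 and 7.79 CPM in control and distended vein of dog 2 (11 and 4 UMIs). OAS2 stood at 16.2, 60.8 and 6.87 CPM in control, distended and grafted vein of dog 1 (14, 62 and 105 UMIs), and 15.6 and 11.7 CPM in control and distended vein of dog 2 (5 and 6 UMIs). Distended dog 1 was the highest of the 5 libraries for all of these, and no DDX60 was detected in distended dog 2. DHX58, at 1.63 to 13.7 CPM, had the same highest library. EIF2AK2 and OAS3 in the graft, at 9.87 and 4.25 CPM, lay close to the control of dog 1, at 9.26 and 4.63 CPM.

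In the ISG15, ubiquitin and ADP-ribose systems, USP18 stood at 12.7, 35.3 and 3.60 CPM in control, distended and grafted vein of dog 1 (11, 36 and 55 UMIs), and 21.8 and 5.85 CPM in control and distended vein of dog 2 (7 and 3 UMIs). PARP9 stood at 12.7, 7.84 and 2.35 CPM in control, distended and grafted vein of dog 1 (11, 8 and 36 UMIs), and 15.6 and 9.74 CPM in control and distended vein of dog 2 (5 and 5 UMIs). TRIM25 stood at 42.8, 42.1 and 16.9 CPM in control, distended and grafted vein of dog 1 (37, 43 and 259 UMIs), and 34.3 and 19.5 CPM in control and distended vein of dog 2 (11 and 10 UMIs). The graft was the lowest library for each. HERC6, PARP14 and DTX3L had graft levels of 13.3, 10.7 and 3.53 CPM, against 15.1 and 24.9, 25.5 and 21.8, and 10.4 and 15.6 CPM in the controls of dogs 1 and 2.

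**Figure D2:**
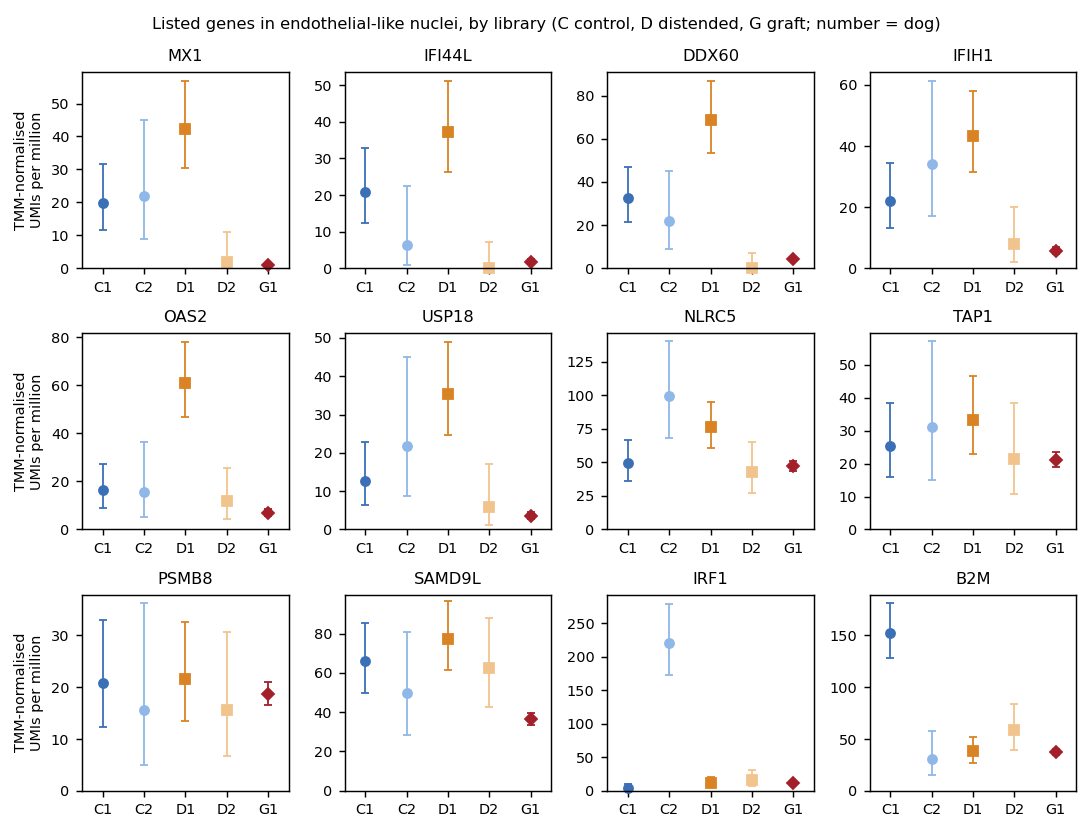
Levels of 12 members in endothelial-like nuclei, as TMM-normalised CPM, with 1 point per library (controls C1 and C2, distended veins D1 and D2, graft G1) and bars for the exact 95% counting interval. MX1, IFI44L, DDX60, IFIH1, OAS2 and USP18 peak in distended dog 1 and are low in distended dog 2 and the graft, whereas IRF1 peaks in the control of dog 2 at 221 CPM and B2M in the control of dog 1 at 153 CPM.

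Of the class I genes, TAP1 was highest in distended dog 1 and lowest in distended dog 2 and the graft, as the effectors were, while B2M and PSMB9 were highest in the control of dog 1. NLRC5 stood at 49.8 and 99.7 CPM in the controls of dogs 1 and 2 (43 and 32 UMIs), 76.4 and 42.9 CPM in their distended veins (78 and 22 UMIs) and 47.2 CPM in the graft (722 UMIs). B2M stood at 153 and 31.2 CPM in the controls of dogs 1 and 2 (132 and 10 UMIs), 38.2 and 58.5 CPM in their distended veins (39 and 30 UMIs) and 37.5 CPM in the graft (573 UMIs). TAP1 stood at 25.5 and 31.2 CPM in the controls of dogs 1 and 2 (22 and 10 UMIs), 33.3 and 21.4 CPM in their distended veins (34 and 11 UMIs) and 21.2 CPM in the graft (324 UMIs). The graft lay within the range of the other libraries for NLRC5 and B2M, and beside distended dog 2 for TAP1. PSMB8 spanned 15.6 to 21.6 CPM over the 5 libraries and PSMB9 13.6 to 41.7 CPM. IRF1 stood at 3.47 and 221 CPM in the controls of dogs 1 and 2 (3 and 71 UMIs), 11.8 and 15.6 CPM in their distended veins (12 and 8 UMIs) and 11.2 CPM in the graft (171 UMIs). STAT2 spanned 13.7 to 33.3 CPM and IRF9 1.95 to 17.4 CPM, IRF9 being lowest in distended dog 2.

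In these nuclei the distended veins again gave no call. edgeR called 0 of 25 members, against a background of 0% (0 of 10823 genes), with 0 members and 220 genes at an unadjusted p under 0.05. DESeq2 called 2 genes and 0 members. The members' median log2 fold change was 0.12 and that of all genes 0.07. The highest values belonged to OAS3 (log2 fold change 1.71, SE 1.17, adjusted p = 1), OAS2 (1.22, SE 0.89, adjusted p = 1) and MX2 (0.95, SE 1.12, adjusted p = 1), and the lowest to IRF1 (-3.01, SE 1.38, adjusted p = 1), B2M (-0.97, SE 0.81, adjusted p = 1) and PSMB9 (-0.88, SE 0.72, adjusted p = 1). Without the control of dog 2, IRF1 was at 1.88, without the control of dog 1, B2M was at 0.69, and without distended dog 1, OAS2 was at -0.47. The members' median was -1.16 without distended dog 1, with 19 of 22 below 0, and 0.84 without distended dog 2. DDX60 was called lower when distended dog 1 was left out. The share of all genes called in that fit is not given, so the call is not read as a result about DDX60. PARP9 and PSMB9 were lower in both distended veins than in both controls, where 11.1% of genes were, and STAT2 was higher, where 14.1% were. The opposite directions in the dogs were present here as well: 16 of 25 members were above the control in distended dog 1 and below it in distended dog 2, against 26.9% of genes. Among the libraries given, distended dog 1 was also highest inside clusters 6 and 0. Cluster 3, with 371 of the 599 endothelial-like nuclei of distended dog 1, is not given here. In endothelial-like cluster 6 the 33 genes summed to 1630 UPM in the control of dog 2 (269 nuclei) and 2146 and 830 in distended dogs 1 and 2 (100 and 130 nuclei). In cluster 0 they summed to 1039 and 1236 in the controls (499 and 129 nuclei) and to 1787 in distended dog 1 (98 nuclei).

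The graft against the controls gave a median log2 fold change of -1.21 over the 25 members, with 22 below 0, and 0.18 over all genes. edgeR called 0 members, against a background of 0%. MX1 and PARP9 (2 members) and 1223 genes had an unadjusted p under 0.05, while DESeq2 called 103 genes and 0 members. The lowest values belonged to MX1 (log2 fold change -4.26, SE 1.54, adjusted p = 0.432), IRF1 (-3.28, SE 1.76, adjusted p = 0.47) and IFI44L (-3.02, SE 1.70, adjusted p = 0.483), and the highest to EIF2AK2 (0.09, SE 1.06, adjusted p = 0.978), OAS3 (0.06, SE 1.32, adjusted p = 0.988) and PSMB8 (0.01, SE 0.86, adjusted p = 0.997). The graft was below both controls for 19 members, where 32.5% of genes were, and above both for EIF2AK2 alone, where 45.8% were. MX1 stood at -4.29 without distended dog 1 and at -4.26 without distended dog 2. IRF1 stood at -3.20 without distended dog 1 and at 1.62 without the control of dog 2. With the dog as a block, 75 genes but 0 members were called.

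Against the distended veins the median was -1.26, with 24 of 25 members below 0, and 0.04 over all genes. edgeR called 0 members, against a background of 0%. MX1 and MX2 (2 members) and 517 genes had an unadjusted p under 0.05, while DESeq2 called 13 genes and 0 members. MX1 (log2 fold change -4.42, SE 1.54, adjusted p = 0.953), IFI44L (-3.46, SE 1.71, adjusted p = 1) and MX2 (-3.45, SE 1.46, adjusted p = 1) had the lowest values, and PSMB9 (0.47, SE 0.82, adjusted p = 1), PSMB8 (-0.01, SE 0.84, adjusted p = 1) and IRF1 (-0.27, SE 1.57, adjusted p = 1) the highest. The graft was below both distended veins for 13 members, where 27.3% of genes were, and above both for PSMB9 alone, where 35% were. The median was -0.12 without distended dog 1, with 12 of 22 below 0, and -1.81 without distended dog 2. Without distended dog 2, 4 of the 26 members then tested were called lower, namely DDX60, IFI44L, MX1 and MX2, where 1.44% of 11208 genes were. Without distended dog 1, IFI44L stood at 5.93, a value fitted against the single other distended library, which had no UMI of it. By role, the median against the distended veins was -3.45 for 5 effectors and -2.28 for 6 sensing genes, and -0.18 for 4 class I genes. Grafted against control and grafted against distended share the grafted library, so their values are not independent of each other.

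**Figure D3:**
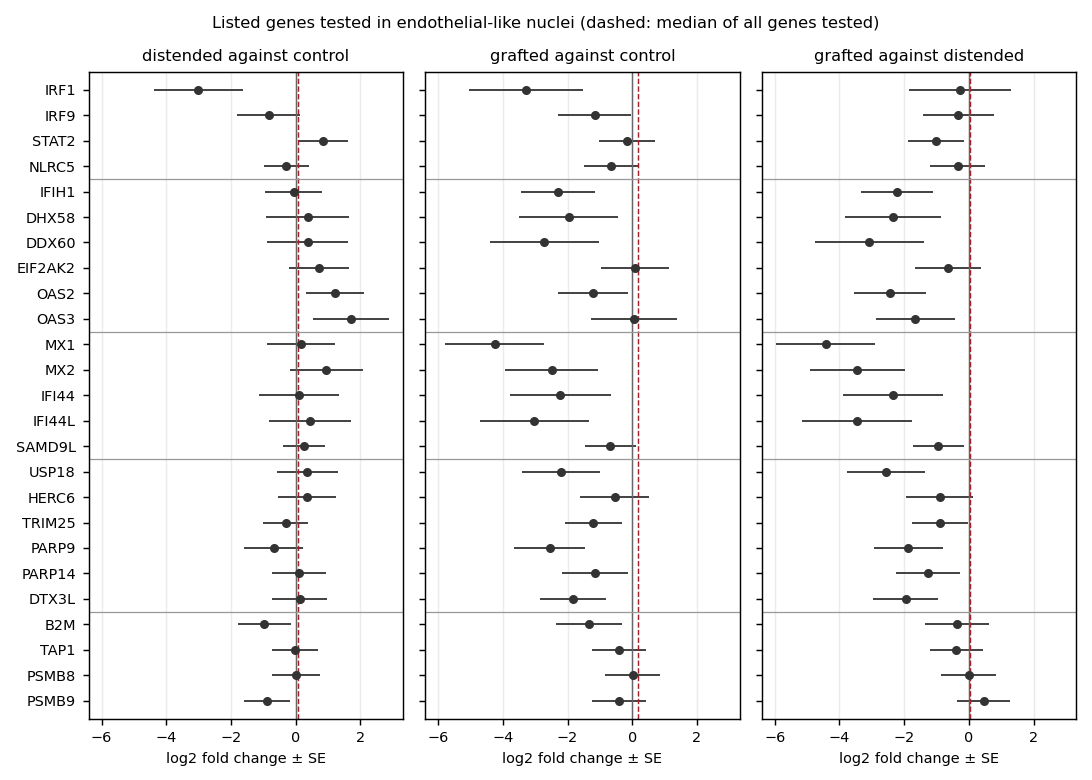
Log2 fold changes of the 25 members tested in endothelial-like nuclei, ordered by role, for distended against control, grafted against control and grafted against distended vein; bars are standard errors and dashed lines the median of all genes. In both comparisons with the graft nearly all sensors, effectors and ISG15-system genes lie left of 0, down to -4.42 for MX1, while class I genes span -1.33 to 0.47 and the distended veins lie on both sides of 0.

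A set of nuclei within the endothelial-like class held most of the PSMB9, PSMB8 and B2M transcripts of that class in the graft. Cluster 8 held 287 nuclei, 262 of them from the graft, 11 from the control of dog 1 and 10 from distended dog 2. It was named endothelial-like on 3 markers, and its leading genes encode ribosomal, mitochondrial and other housekeeping proteins (BANF1, NME1, RPL15, NOP10, NDUFB4, RPS27A and ATP5MC1). Transcripts of ribosomal proteins took 17.3% of its graft UMIs, against 0.59% in cluster 14, which held 992 of the 1260 endothelial-like graft nuclei. In the graft it held 347 of 389 endothelial-like UMIs of PSMB9, 214 of 286 of PSMB8, 415 of 573 of B2M, 347 of 557 of SAMD9L and 171 of 324 of TAP1, but 124 of 722 of NLRC5. These nuclei were deep. With clusters made without the dominant features, a like cluster of 241 graft nuclei held 3276721 UMIs, against 7841350 in all endothelial-like graft nuclei. Of these genes TAP1 lay nearest to that proportion. In the control of dog 1 its 11 nuclei held 92 of 132 UMIs of B2M.

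Without cluster 8, an alternative added after the data were seen, the order of the libraries changed for B2M and PSMB9. Among endothelial-like nuclei outside it, B2M stood at 104, 49.3, 52.4, 40.7 and 36.4 UPM, in controls 1 and 2, distended veins 1 and 2 and the graft in that order. PSMB9 stood at 41.7, 38.4, 39.3, 13.6 and 9.68 UPM. NLRC5 stood at 109.5, 175, 146, 143 and 138 UPM. The graft was now the lowest library for B2M and PSMB9, and remained inside the range of the others for NLRC5. For the graft against the controls, PSMB8 moved to a log2 fold change of -1.04, PSMB9 to -2.25 and TAP1 to -0.73, and the median of 25 members to -1.66, with 23 below 0. edgeR then called 396 of 10664 genes but 0 members, and MX1 was at -4.03 (SE 1.26, edgeR adjusted p = 0.0797). Against the distended veins all 25 members were below 0, with a median of -1.44 and MX1 at -4.26 (edgeR adjusted p = 0.115).

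Summed by role, the endothelial-like nuclei of the graft held the fewest transcripts of effectors, at 90 UPM, against 259 and 180 in the controls and 448 and 142 in the distended veins. For RNA sensing the sums were 176 and 175 in the controls, 441 and 69 in the distended veins and 67 in the graft. Distended dog 1 was highest in both roles, and the graft and distended dog 2 were close to each other in RNA sensing. The ISG15, ubiquitin and ADP-ribose genes followed, at 230 and 235 in the controls, 349 and 142 in the distended veins and 104 in the graft. Class I genes stood at 456 and 180 in the controls, 216 and 228 in the distended veins and 205 in the graft, so that 1 control stood apart and the other 4 libraries lay together. The sum of the transcription factors was 623 in the control of dog 2 through IRF1, and 158 to 262 in the other libraries.

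**Figure D4:**
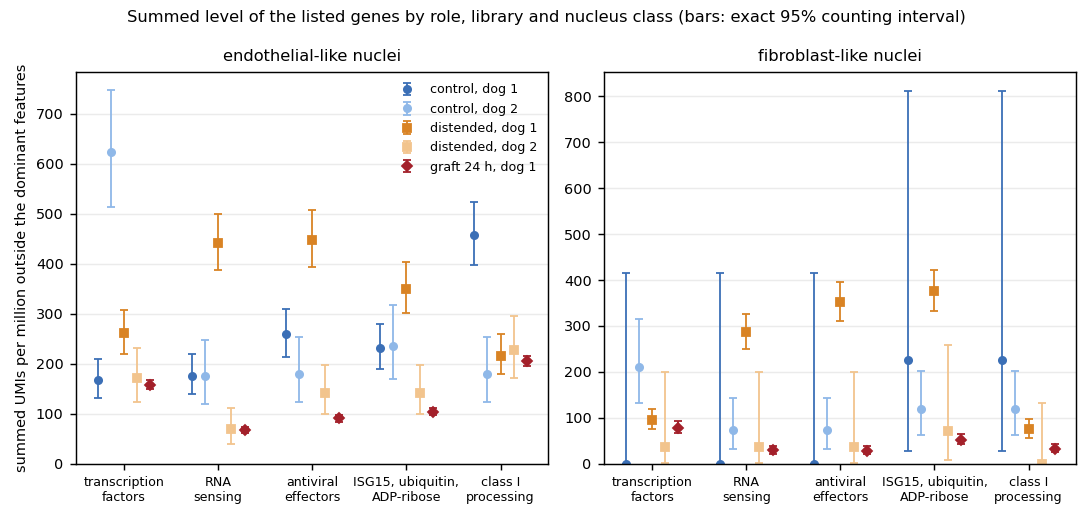
Summed level of the members by role in endothelial-like and fibroblast-like nuclei of each library, in UPM, with exact 95% counting intervals. Sums for sensing, effector and ISG15-system genes are highest in distended dog 1 in both classes and, in endothelial-like nuclei, lowest in distended dog 2 and the graft, while the class I sum in endothelial-like nuclei is highest in the control of dog 1 at 456.

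Among fibroblast-like nuclei those of distended dog 1 held the most listed transcripts. Their 33 genes summed to 1183 UPM (exact 95% counting interval 1107 to 1263, 905 UMIs). The controls stood at 450 (123 to 1152, 4 UMIs) and 593 (457 to 755), distended dog 2 at 179 (58.1 to 417, 5 UMIs) and the graft at 222 (200.3 to 245). The control of dog 1 and distended dog 2, with 49 and 51 such nuclei, cannot place a single gene. Of the 793 graft nuclei 787 lay in cluster 15, and the nuclei of distended dog 1 in clusters 4, 5 and 7.

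OAS2 was the one member called in these nuclei. It stood at 0, 58.1 and 1.08 CPM in control, distended and grafted vein of dog 1 (0, 74 and 4 UMIs), and 16.6 and 14.7 CPM in control and distended vein of dog 2 (3 and 1 UMIs). Distended dog 1 was far above the graft, and the other 3 libraries had 0 to 3 UMIs. It fell in the graft against the distended veins (log2 fold change -5.23, SE 1.44, adjusted p = 0.0195, edgeR quasi-likelihood test with Benjamini-Hochberg adjustment). This was 1 of 10 members tested, and 1.9% of 7313 genes were called lower. The call was lost without the dominant features (adjusted p = 0.0708) and with the dog as a block (adjusted p = 0.206), under which IFI44 was called, and DESeq2 gave OAS2 no adjusted p. The graft lay below both distended veins for OAS2, PARP14 and SAMD9L, where 24.8% of genes did. Each of these 3 had 1 UMI in distended dog 2. Without distended dog 1 a single member, IRF1, had enough UMIs to be tested. OAS2 thus entered this fit through distended dog 1, as the other members did. Their direction against that library, the call of OAS2 included, follows from the filter, and no count or median over them is given.

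Other members with a wide gap between distended dog 1 and the graft included effectors. MX1 had 0, 44.0 and 1.89 CPM in control, distended and grafted vein of dog 1 (0, 56 and 7 UMIs), and 0 and 0 CPM in control and distended vein of dog 2 (0 and 0 UMIs). IFI44 had 0, 29.8 and 0.812 CPM in control, distended and grafted vein of dog 1 (0, 38 and 3 UMIs), and 5.52 and 0 CPM in control and distended vein of dog 2 (1 and 0 UMIs). SAMD9L had 0, 80.1 and 4.33 CPM in control, distended and grafted vein of dog 1 (0, 102 and 16 UMIs), and 22.1 and 14.7 CPM in control and distended vein of dog 2 (4 and 1 UMIs). Distended dog 1 carried nearly all the UMIs of MX1 and IFI44, and none of these values passed the test against the distended veins (edgeR adjusted p = 0.0793, 0.0991 and 0.0754). PARP14, at 52.6 CPM in distended dog 1 and 2.71 CPM in the graft, gave -3.88, SE 1.33, adjusted p = 0.087 on the log2 scale. Without distended dog 2 the graft was set against distended dog 1 alone, the library through which most members then tested had entered. No count of calls is given for that fit.

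Against the controls, fibroblast-like nuclei of the distended veins gave 0 calls among 10 members, against 0.0273% of 7313 genes, by edgeR, and 0 by DESeq2. IRF1 and MX1 (2 members) and 91 genes had an unadjusted p under 0.05. PARP14 lay above both controls in both distended veins, as 19.1% of genes did, but on 1 UMI in distended dog 2 and on 0 and 1 UMI in the controls. No member was lower in both, where 7.96% of genes were. MX1 had 56 UMIs in the distended veins, all of them in distended dog 1, and 0 in the controls. Pooled over the distended veins, that is at least 2.87-fold higher against a floor of 3 UMIs over both controls. PARP14 had 1 UMI in the controls, a pooled count ratio of 10.5 (exact 95% interval 1.81 to 419), and EIF2AK2 likewise 5.84 (0.987 to 237). OAS2, with 3 control UMIs, had a ratio of 3.84 (1.27 to 19.1). These pooled values rest on distended dog 1, as distended dog 2 had 0 or 1 UMI of each gene. Their intervals cover counting error only and not the spread between dogs. IRF1 had the lowest value (log2 fold change -3.43, SE 1.23, adjusted p = 1), with 17 UMIs in the control of dog 2, followed by STAT2 (-0.18, SE 1.30, adjusted p = 1) and TRIM25 (0.39, SE 1.33, adjusted p = 1).

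In the graft against the controls the fibroblast-like nuclei gave a median of -1.37 over the members, or -1.71 with genes of few UMIs at their bound, and 0.28 over all genes. Without the control of dog 2 the members' median was 3.59 over the 17 then tested, set against the few UMIs of the control of dog 1. The median is thus not read as a shared fall. edgeR called 0 of 10 members and 2.28% of 7313 genes (1.83% lower). The graft lay below both controls for HERC6 and TRIM25, each with 1 UMI in the control of dog 1, where 20.9% of genes did. IRF1 and OAS2 (2 members) and 895 genes had an unadjusted p under 0.05. IRF1 (log2 fold change -3.78, SE 1.33, adjusted p = 0.112), SAMD9L (-2.04, SE 1.45, adjusted p = 0.579) and HERC6 (-1.38, SE 1.37, adjusted p = 0.734) had the lowest values, and EIF2AK2 (0.18, SE 2.16, adjusted p = 0.981), STAT2 (-0.26, SE 1.35, adjusted p = 0.953) and TRIM25 (-1.35, SE 1.48, adjusted p = 0.762) the highest with at least 20 UMIs. IRF1 stood at -3.84 without distended dog 1 and at -3.94 without distended dog 2. STAT2 spanned 14.7 to 27.6 CPM in the 4 libraries in which it was detected.

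The last comparison set endothelial-like against fibroblast-like nuclei of the same libraries, 5 pairs in all, with the library as a block. The class I regulator NLRC5, the class I genes B2M and PSMB9, and SAMD9L were higher in endothelial-like nuclei. edgeR called 4 of 10 members higher and 0 lower, where 14.6% of 6368 genes were called higher and 6.85% lower. NLRC5 stood at 94.4, 175, 143, 89.4 and 94.2 UPM in endothelial-like nuclei of controls 1 and 2, distended veins 1 and 2 and the graft, in that order. In fibroblast-like nuclei it stood at 0, 0, 18.3, 0 and 15.0, with no UMI in either control or in distended dog 2. NLRC5 rose in the endothelial-like class by 3.27 on the log2 scale (SE 0.47, edgeR adjusted p = 6.09e-06).

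B2M stood at 289.7, 54.6, 71.3, 122 and 74.8 UPM in endothelial-like nuclei and at 113, 9.12, 22.2, 0 and 15.6 in fibroblast-like nuclei, in the same order (log2 fold change 2.29, SE 0.44, adjusted p = 0.000208). PSMB9 stood at 79.0, 43.7, 42.1, 28.5 and 50.8 and 0, 36.5, 7.85, 0 and 5.78 (2.50, SE 0.53, adjusted p = 0.000719). SAMD9L stood at 125, 87.4, 144, 130.1 and 72.7 and 0, 36.5, 133, 35.8 and 9.25 (1.65, SE 0.50, adjusted p = 0.0154). For these 3 genes the fibroblast-like values of the control of dog 1 and distended dog 2 rest on 0 or 1 UMI, and B2M also had 1 UMI in those of the control of dog 2. In the control of dog 2, distended dog 1 and the graft the endothelial-like value was the higher for each gene, by little for PSMB9 in the control of dog 2 and for SAMD9L in distended dog 1. SAMD9L was the weakest of these calls. It was lost without the control of dog 1 (adjusted p = 0.0879), without the graft (0.247), without the library block (0.369) and with at least 200 genes per nucleus (0.112). The other calls could not be checked in every alternative. Of 16, NLRC5 was tested in 15, B2M in 14 and PSMB9 in 11. Without the graft 4 members were tested and 1 was called.

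The other 6 members tested did not pass. TAP1 stood at 48.3, 54.6, 62.2, 44.7 and 42.3 UPM in endothelial-like nuclei and at 113, 63.8, 37.9, 0 and 9.25 in fibroblast-like nuclei (log2 fold change 1.17, SE 0.47, adjusted p = 0.0829). OAS2 stood at 30.7, 27.3, 113, 24.4 and 13.7 and 0, 27.4, 96.8, 35.8 and 2.31 (0.93, SE 0.50, adjusted p = 0.217). STAT2 (log2 fold change 0.15, SE 0.42, adjusted p = 0.889) and HERC6 (0.10, SE 0.42, adjusted p = 0.929) had values near 0. TRIM25 (0.91, SE 0.42, adjusted p = 0.135) and PARP14 (0.93, SE 0.50, adjusted p = 0.22) lay between. Few members had any UMI in the fibroblast-like nuclei of the control of dog 1 and distended dog 2. Members therefore entered this test largely through the endothelial-like side. Their shared direction and the count called higher follow in part from the filter, and no median over them is given. Without cluster 8, 8 members were tested and 3 were called higher, where 11.5% of 6201 genes were: NLRC5 (3.45, SE 0.46, edgeR adjusted p = 3.84e-06), B2M (1.38, SE 0.43, 0.0229) and SAMD9L (1.29, SE 0.44, 0.0447), and PSMB9 had too few UMIs to be tested. Erythroid markers, at 30002 UPM in the endothelial-like nuclei of the control of dog 2, also differed between libraries, and their part in these values was not tested.

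**Figure D5:**
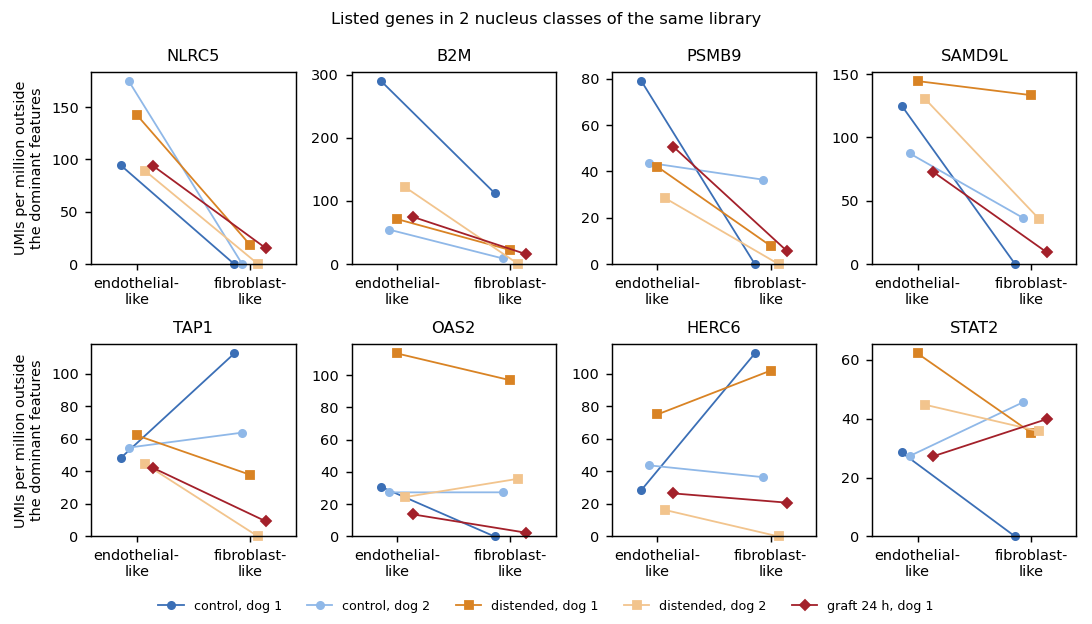
Levels of 8 members in endothelial-like and fibroblast-like nuclei of the same library, joined by a line for each of the 5 libraries, in UPM. NLRC5, B2M and PSMB9 lie higher on the endothelial-like side in every library, although the control of dog 1 and distended dog 2 have 0 or 1 fibroblast-like UMI of each, whereas STAT2 and HERC6 have lines of both slopes.

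Inside the graft, members lay in different clusters. Cluster 12, with 454 graft nuclei, has no name because a macrophage and a neutrophil list tied at 11 markers each. It held 108 of the graft's 209 UMIs of DDX60, or 51.7%, while it held 10.7% of all graft UMIs outside the dominant features. That set DDX60 at 92.5 UPM there, against 12.5 in the endothelial-like cluster 14. ISG20 was at 25.7 against 1.4 UPM, MX2 at 31.7 against 6.0, IRF9 at 39.4 against 12.9 and STAT2 at 71.9 against 32.1. OASL, with 12 of its 17 graft UMIs there, followed them. NLRC5 ran the other way, at 90.8 UPM in cluster 12 and 137.7 in cluster 14. The listed genes together reached 760 UPM in cluster 12 (exact 95% counting interval 711 to 812), 558 in cluster 14 and 222 in the fibroblast-like cluster 15. CXCL10, which draws T cells through CXCR3, had 8 UMIs, 4 of them in cluster 14, 2 in cluster 15 and 1 each in clusters 12 and 16. With 1 grafted library these are values of that library, without a test.

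The rest of the pathway was followed in 113 companion genes found of 137 names listed. Of the interferons themselves only IFNB1, IFNG, IFNE and IFNK were looked up, and their transcripts were scarce. IFNB1 and IFNG had 0 UMIs in every library, IFNE 10 and IFNK 4 in all. IFNAR1, a chain of the type I receptor, stood at 50.4, 47.0, 21.6, 46.7 and 46.3 CPM in controls 1 and 2, distended veins 1 and 2 and the graft. JAK1, which serves both receptors, stood at 263, 104, 134, 149 and 235 CPM. None of the 10 ligands, receptors and kinases tested in whole vein passed, and in the graft against the controls they ran from TYK2 (log2 fold change -1.70, SE 0.89, adjusted p = 0.573) to IL10RB, a receptor chain (2.21, SE 0.97, adjusted p = 0.564).

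Of 86 companion genes tested in whole vein, edgeR called 0 in each comparison, and the medians were -0.19 for distended against control, -0.14 for grafted against control and -0.10 for grafted against distended. Other interferon-stimulated genes went the way of the members: in the graft against the controls 23 of 29 were below 0, with a median of -0.97. RNF213, a giant ubiquitin ligase, stood at 140.3, 169.5, 347, 48.5 and 18.0 CPM, in the same order. HELZ2, a helicase coactivator, stood at 7.68, 16.8, 10.4, 1.80 and 0.645 CPM (log2 fold change -4.17, SE 1.53, adjusted p = 0.559 for the graft against the controls), and IFIT3, which binds foreign RNA with its relatives, at 13.2, 6.71, 8.95, 1.80 and 0.8292 CPM (log2 fold change -3.57, SE 1.502, adjusted p = 0.564). These 3 were high in distended dog 1 or the controls and low in the graft, as MX1 was. Among upstream sensors, STING1, the adaptor for DNA sensing, had 0 UMIs in the controls and 230 in the graft, at least 5.33-fold higher against the floor of 3 UMIs (edgeR unadjusted p = 0.0302, adjusted p = 0.559).

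Other antigen presentation genes did not follow the interferon-stimulated genes, with 8 of 21 below 0 in the graft against the controls and a median of 0.26. DLA88, a class I heavy chain, stood at 304, 10.1, 36.5, 3.60 and 138 CPM. The control of dog 1 was far above the rest. Its reads can be split among near-identical copies and depend on the dog's alleles, so the value is uncertain. In fibroblast-like nuclei RNF213 was the one companion gene called, lower in the graft than in the distended veins (log2 fold change -5.30, SE 1.53, adjusted p = 0.0292). It was 1 of 13 other interferon-stimulated genes tested there, beside the genes of the other companion lists. The share of all genes called lower in that fit is given above with OAS2. Between endothelial-like and fibroblast-like nuclei, 11 of 48 companion genes were called higher and 2 lower, where 14.6% and 6.85% of all genes were. The immunoproteasome and peptide-loading genes PSMB10 (log2 fold change 2.98, SE 0.49, adjusted p = 3.43e-05), TAPBP (1.62, SE 0.45, adjusted p = 0.00838), PSME1 and PSME2 and the class I heavy chains DLA-64 (2.64, SE 0.41, adjusted p = 1.68e-05) and DLA-12 were among those higher, with CANX, IFNGR1, IFNGR2, IRF2 and MOV10. FOXO3 and IKBKE were the 2 called lower.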

How the data were processed

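Single-nucleus RNA was captured with 10x 3' chemistry, and the authors deposited raw UMI counts per gene and nucleus for 5 libraries, with Cell Ranger 7.0.0 as the tool named by the submitters' processing notes and, per the file headers, in the matrices. The build used for alignment was not given in the sources used here. The feature and barcode lists deposited with them hold other values (names). The members and all lists were chosen with earlier results of these data known. Features without an assigned gene (24, with 7.70% and 11.5% of UMIs in the controls, 5.22% and 5.42% in the distended veins and 0.588% in the graft) were left out.

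Nuclei with at least 100 genes and at most 10% mitochondrial UMIs were kept (6855, with 536 removed), and 42 called doublets (0.613%) were retained. Clustering used scanpy 1.11.5 (Python 3.11.15) on 2000 variable genes without the listed genes, 20 components, 15 neighbours and Leiden resolution 0.8, and gave 17 clusters. Clusters were named from marker lists, and the naming limits (3 UMIs, a 2-fold level, 3 markers) were set after the data were seen. Counts were summed per library and class and tested with edgeR 4.0.16 (R 4.3.3; TMM, filterByExpr, quasi-likelihood F-test, all 3 groups in one fit, Benjamini-Hochberg over all genes, threshold 0.05). The 2 classes were compared with the library as a block. Standard errors are the fold change divided by the root of F. The script was tested on simulated data. Nuclei are not replicates. Between the groups, p-values measure the spread between the 2 controls and between the 2 distended veins, to which the lone graft adds nothing. Between the classes, they measure the spread over the pairs of 5 libraries from 2 dogs.

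Members with at least 30 UMIs are given in full, and each comparison names the members past the threshold, else the 3 highest and 3 lowest by fold change with at least 20 UMIs. Alternatives were DESeq2 1.42.0 and its size factors, no filter, no dominant features, a dog block, each library left out, doublets removed, at least 200 genes and other clusterings. Controls and distended veins with the same number come from the same dog per the labels. Across 13170 genes, the difference between dogs in the controls and that in the distended veins had a correlation of -0.30, from a single pair of differences. Intervals are exact (95%) and floors are 3 counts.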

Additional observations from a re-analysis of the deposited data

How the results depend on the processing

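Among alternative counts of called members, 117 stayed within 1.5 times the reported count and 22 moved, and among alternative values of single genes 616 kept direction and side of the threshold, 10 gained a call, 7 lost one and 53 reversed. Of the medians over members, 130 moved by less than 1 SD of the members' fold changes and 9 by more. Leaving out 1 library at a time, edgeR called 0 to 1 members in whole vein for grafted against control and for grafted against distended. In endothelial-like nuclei it called 0 to 1 for distended against control, 0 to 2 for grafted against control and 0 to 4 for grafted against distended. In fibroblast-like nuclei the counts were 0 to 1 for grafted against control and 0 to 18 for grafted against distended. For grafted against distended in these nuclei, reported as 1, DESeq2 gave 0, no filter 11, no dominant features 0 and at least 200 genes per nucleus 6. Endothelial-like against fibroblast-like nuclei gave 1 to 7 calls in place of 4, with 9 without a filter and 2 with clusters at resolution 0.4. The share of all genes called under each alternative is not given here, so these counts are not read as results about the members.

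Reversed log2 fold changes were mostly small or rested on 1 library. For whole vein with a library left out, distended against control spanned -0.000955 to 7.95 for RSAD2, -0.55 to 1.66 for OAS2, -3.46 to 1.99 for IRF1 and -1.86 to 0.53 for B2M. Grafted against control spanned -0.065 to 0.043 for STAT2, -0.34 to 0.30 for PSMB8 and -3.77 to 1.68 for IRF1. In endothelial-like nuclei the spans for distended against control were -0.47 to 1.92 for OAS2, -3.96 to 1.88 for IRF1 and -1.74 to 0.69 for B2M. For grafted against control they were -0.18 to 0.50 for OAS3, -0.21 to 0.32 for PSMB8 and -4.25 to 1.62 for IRF1. For grafted against distended they were -0.20 to 0.25 for PSMB8 and -4.37 to 5.93 for IFI44L. In fibroblast-like nuclei STAT2 spanned -0.46 to 7.62 and TRIM25 -0.41 to 0.96 for distended against control, and STAT2 -0.49 to 7.58 and SAMD9L -2.25 to 5.49 for grafted against control. The values of 5.49 and above are fitted against a single library with no UMI of that gene and measure no size.

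Without the filter, whole-vein values for grafted against control were 0.31 for STAT2, 0.25 for PSMB8 and 0.20 for EIF2AK2. For grafted against distended in endothelial-like nuclei it gave 0.33 for PSMB8 and 0.067 for IRF1. In fibroblast-like nuclei STAT2 was at 0.015 for distended and 0.21 for grafted against control. With cluster 8 left out, grafted against distended in whole vein gave -1.09 for PSMB9 and -0.045 for PSMB8. In endothelial-like nuclei it gave -1.69 for PSMB9, and -1.04 for PSMB8 against the controls. Clusters at resolution 0.4 put the latter at -1.01, and clusters made without the dominant features at -1.22, with PSMB9 at -1.87 against the distended veins. PSMB8 in that comparison was at 0.015 with DESeq2 size factors, 0.019 with DESeq2, 0.044 without the dominant features and 0.023 without doublets. At least 200 genes per nucleus gave -0.052 for OAS3 in endothelial-like and -0.20 for EIF2AK2 in fibroblast-like nuclei for grafted against control. In fibroblast-like nuclei DESeq2 put STAT2 at 0.064 and TRIM25 at -0.22 for distended and STAT2 at 0.34 for grafted against control. DESeq2 size factors put the latter at 0.10 and moved the median of all genes there from 0.28 to 0.63.

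The replicate block (same dog, from the labels) gave, in endothelial-like nuclei of the graft against the controls, -0.35 for EIF2AK2, -0.45 for OAS3 and -0.17 for PSMB8, and 0.88 for IRF1 against the distended veins. In fibroblast-like nuclei it gave 0.030 for STAT2 and -0.96 for TRIM25 for distended against control, and -1.54 for EIF2AK2 and 0.022 for STAT2 for grafted against control. Beside OAS2 and IFI44 in fibroblast-like nuclei it changed no other call of a member between the groups. The cause of these shifts was not tested. In whole vein depth limits distended dog 2 most, where 0 UMIs allow up to 5.39 CPM. In endothelial-like nuclei the control of dog 2 had the highest such limit, and in fibroblast-like nuclei the control of dog 1. A single grafted library from 1 dog limits every comparison with the graft.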

Other observations

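Classes too small for a test also held listed transcripts, given here in UPM with exact 95% counting intervals. Lymphatic endothelial-like nuclei stood at 1515 in the control of dog 2 (727 to 2786, 31 nuclei) and at 1488 in distended dog 1 (1235 to 1778, 119 nuclei), in the range of the endothelial-like nuclei of the same libraries. Smooth muscle-like nuclei stood lower, at 388 in the control of dog 1 (186 to 713), 843 in distended dog 1 (545 to 1244) and 430 in the graft (339 to 537).

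The highest sums lay in clusters without a name. Cluster 9, led by the macrophage genes TIMD4, F13A1, CD163 and MRC1 but tied between a macrophage and a T/NK marker list, stood at 2813 in distended dog 1 (2375 to 3308, 101 nuclei) and at 1088 in the graft (717 to 1584, 28 nuclei). Cluster 10, led by SH3GL3 and ANKRD6, stood at 3337 in distended dog 1 (2630 to 4177, 31 nuclei) and at 1216 in the graft (1000.3 to 1464, 60 nuclei). In the control of dog 2, 16 nuclei of cluster 12 reached 5284 (3958 to 6912) on 53 UMIs, against 760 in the 454 graft nuclei of that cluster.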
